A study of Mus musculus with 6 samples.

Results

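The genes described here are 32 mouse transcription factor genes: 28 homeobox genes of the Hoxa, Hoxc and Hoxd clusters, and 4 genes for Hox cofactors, Meis1, Meis2, Pbx2 and Pbx3. A probe belonged to the set where it was no control probe and the array design gave it the symbol of a member. By that rule 36 of 55681 probes were found, 1 for each gene apart from Hoxa9, Hoxa13, Hoxd11 and Pbx3, which had 2 each. The set held 10 Hoxa, 9 Hoxc and 9 Hoxd genes, and the Hoxb cluster was not in it. After a filter on dim probes 26 of the 32 members were among the 24569 genes tested.

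RNA came from the whole testes of 6 newborn male mice (day 0) of the strain FVB.129/Sv mixed, with 1 single-colour Agilent array per animal and 2 animals per genotype. All 6 mice carried a Cre recombinase under the promoter of Ddx4 (Vasa, Mvh), a gene active in germ cells. In VSKO mice (Vasa-cre, Sin3a deleted/floxed) 1 Sin3a allele was deleted and the other was floxed, so that Cre removes it in germ cells. HEMI mice (Vasa-cre, Sin3a deleted/+) had 1 deleted and 1 intact allele, and WT mice (Vasa-cre, Sin3a +/+) had both alleles intact. Sin3a encodes the scaffold of a histone deacetylase complex that represses transcription. Cre acts in germ cells, the RNA is that of all cells of the organ together, and fewer cells of a type cannot be told apart from less RNA per cell. The slide held the VSKO and HEMI arrays in row 1 and the WT arrays in row 2, so the row and the genotype cannot be told apart in comparisons with WT.

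Hox genes encode homeodomain transcription factors that give cells along the trunk, the limbs and the genital tract their position. They lie in clusters in the order in which they are used along the body, with the genes for the head and neck at one end (low paralogue numbers) and those for the tail, the distal limb and the lower genital tract at the other. Their proteins bind DNA with more selectivity as complexes with the TALE homeodomain proteins Pbx and Meis. In the embryo the gonad forms beside the mesonephros, whose duct becomes the epididymis and vas deferens, and posterior Hox genes are used along that duct.

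The probes that measured these genes were 60 bases long, and 3 of them that lie in coding sequence are shown because they carry the parts of the protein described above. In the Hoxa6 probe (mm9, chr6:52158194-52158253, minus strand) the capitals mark the codons of the hexapeptide core, the short motif before the homeodomain through which a Hox protein touches Pbx. In the Hoxd10 probe (mm9, chr2:74532280-74532339, plus strand) and the Hoxc11 probe (mm9, chr15:102787022-102787081, plus strand) the capitals mark the same stretch of the homeodomain. All 3 are read 5′ to 3′ from the array design.
Hoxa6: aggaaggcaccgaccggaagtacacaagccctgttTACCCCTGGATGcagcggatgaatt
Hoxd10: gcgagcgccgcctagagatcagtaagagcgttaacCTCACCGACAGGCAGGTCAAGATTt
Hoxc11: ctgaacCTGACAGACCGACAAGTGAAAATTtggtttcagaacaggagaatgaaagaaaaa
The marked stretches of Hoxd10 and Hoxc11 were identical at 17 of 24 bases. Since probes differ in sensitivity, a level is compared below only between arrays for the same probe, and never between probes.

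The 250 bases before the RefSeq start (GRCm38.p6) could be read for 24 starts of 22 members. For Hoxa2, Hoxa5 and Hoxa7, the Hoxa genes with the widest gap between the HEMI animals, and for Hoxd10, one of the leading differences between genotypes, the window is shown 5′ to 3′ on the strand of the gene. The capitals mark matches, on either strand, to letters known for Hox regulation or for core promoters: TGATNNAT (bound by Pbx with Hox), TGACAG (Meis), TTTATG (Cdx), CCAAT and TATAAA. The windows are chr6:52164832-52165081 for Hoxa2, chr6:52204588-52204837 for Hoxa5, chr6:52218574-52218823 for Hoxa7, all on the minus strand, and chr2:74691641-74691890 for Hoxd10 on the plus strand.
Hoxa2: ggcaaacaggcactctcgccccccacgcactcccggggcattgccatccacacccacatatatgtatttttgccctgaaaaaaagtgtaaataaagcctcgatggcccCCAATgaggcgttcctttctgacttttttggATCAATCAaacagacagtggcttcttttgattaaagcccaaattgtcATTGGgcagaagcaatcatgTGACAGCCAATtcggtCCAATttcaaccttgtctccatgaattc
Hoxa5: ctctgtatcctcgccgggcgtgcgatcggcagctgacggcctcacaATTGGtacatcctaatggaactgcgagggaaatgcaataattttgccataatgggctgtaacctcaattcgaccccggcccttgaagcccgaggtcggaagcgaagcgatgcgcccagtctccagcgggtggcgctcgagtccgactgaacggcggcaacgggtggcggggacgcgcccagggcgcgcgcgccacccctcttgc
Hoxa7: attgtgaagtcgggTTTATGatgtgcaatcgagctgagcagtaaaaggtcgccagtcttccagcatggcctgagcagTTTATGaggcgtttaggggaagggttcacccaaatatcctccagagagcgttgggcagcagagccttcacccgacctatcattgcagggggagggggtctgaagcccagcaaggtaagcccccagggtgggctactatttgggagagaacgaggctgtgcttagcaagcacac
Hoxd10: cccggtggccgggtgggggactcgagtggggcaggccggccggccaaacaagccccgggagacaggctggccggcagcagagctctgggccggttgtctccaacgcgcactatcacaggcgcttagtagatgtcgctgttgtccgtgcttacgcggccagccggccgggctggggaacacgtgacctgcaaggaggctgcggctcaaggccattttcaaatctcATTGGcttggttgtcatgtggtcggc
The Hoxa2 window held a Pbx with Hox match, a Meis match and 4 CCAAT boxes, and the Hoxa7 window held 2 Cdx matches. The windows of Hoxa5 and Hoxd10 held 1 CCAAT box each. No match of one motif overlapped a match of another in these 4 windows. Over all members, CCAAT was in 14 of 24 windows (58.3%, against 33.8% of 32851 windows of all genes), TTTATG in 4 (16.7%, against 10.8%), TATAAA in 4 (16.7%, against 12.4%), TGACAG in 2 (8.33%, against 15.9%) and TGATNNAT in 2 (8.33%, against 7.68%). The median GC content was 59.4% in the member windows and 52.4% in all windows. A match describes the letters and shows no binding.

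Between 59.2% and 64.53% of the 59305 non-control spots were well above background on each array, and no spot was saturated. Levels are log2 processed signals minus the 75th percentile of the array, so that a value of 0 is that percentile. Sin3a read 0.61 and 0.38 in VSKO, 0.89 and 0.89 in HEMI and 1.09 and 1.11 in WT. The groups did not overlap, and the VSKO minus WT difference was -0.60 ± 0.13 (SE, n = 2 per group), with adjusted p = 0.134 by limma. Which exons the deletion removes is not given in the sources used here, so it is not known whether the Sin3a probe lies inside them. Markers of the testis were measured: 16 of 16 germ cell, 15 of 15 Sertoli cell and 11 of 12 fetal Leydig cell markers were tested, and the twelfth, Insl3, was not analysed here. In VSKO against WT 2 germ cell markers fell. Dnmt3l fell by 1.76 (log2, adjusted p = 0.0311, limma), and it fell by 2.19 in HEMI against WT (adjusted p = 0.0428, limma). The other was Nanos2, which was not well above background in VSKO and was at least 5.96-fold higher in WT (adjusted p = 0.0424). Cyp17a1 of fetal Leydig cells fell by 1.39 (adjusted p = 0.0423, limma).

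Detection was counted probe by probe, and since probes differ in sensitivity the counts give no order of levels between genes. The scanner software calls a spot well above background when it stands clear of the local noise, and by that call 20 of 32 members were detected on all 6 arrays. Of the 17 Hox members of paralogue groups 1 to 9, 13 were detected on all 6 arrays and 0 on none, whereas of the 11 members of groups 10 to 13, 3 were detected on all 6 (Hoxc10, Hoxd10 and Hoxd11) and 3 on none (Hoxa11, Hoxc12 and Hoxd12). The members of groups 1 to 9 that missed at least 1 array were Hoxa2, Hoxa5, Hoxa6 and Hoxd1. In groups 11 to 13 alone Hoxd11 was the only 1 of 8 detected on all 6. With the looser call of a signal that is positive and significant, 29 of 32 members were detected on all 6 arrays. The share of all genes detected on all 6 arrays was not counted by either call. The counts of members therefore cannot be set against the array as a whole.

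Along Hoxa, on chromosome 6 (mm9, probes from 52112595 for Hoxa2 to 52209039 for Hoxa13), Hoxa3, Hoxa4, Hoxa7 and Hoxa9 were detected on all 6 arrays. Hoxa2 was detected on the 4 VSKO and HEMI arrays and on no WT array. The lowest signals detected for any probe were higher on the WT arrays (-5.35 and -5.25) than on the other 4 (-5.89 to -5.57), and Hoxa2 was detected at -5.51 on VSKO replicate 1 but not at -5.40 on WT replicate 2. Hoxa5 and Hoxa6 missed only WT replicate 1, and Hoxa10, a gene of uterine and vas deferens patterning, missed VSKO replicate 1 and WT replicate 2. Hoxa13, used in the distal limb and the genital tubercle, was detected with 1 of its 2 probes and only on WT replicate 1. Along Hoxc, on chromosome 15 (from 102759058 for Hoxc13 to 102867272 for Hoxc4), the run from Hoxc4 to Hoxc10 was detected on all 6 arrays. Hoxc11 was detected on VSKO replicate 2 alone, and Hoxc13, known for its role in hair and nails, missed HEMI replicate 1 and WT replicate 2. Along Hoxd, on chromosome 2 (from 74509248 for Hoxd13 to 74603059 for Hoxd1), the run from Hoxd3 to Hoxd11 was detected on all 6 arrays. The ends of the cluster were patchy: Hoxd1 was detected on VSKO replicate 1, HEMI replicate 2 and WT replicate 1, and Hoxd13 on HEMI replicate 2 and both WT arrays. Meis1 (chromosome 11), Meis2 and Pbx3 (chromosome 2) and Pbx2 (chromosome 17) were detected on every array. The filter kept genes with a probe detected on both arrays of at least 1 group, and it left out Hoxa11, Hoxa13, Hoxc11, Hoxc12, Hoxd1 and Hoxd12.

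**Figure D1:**
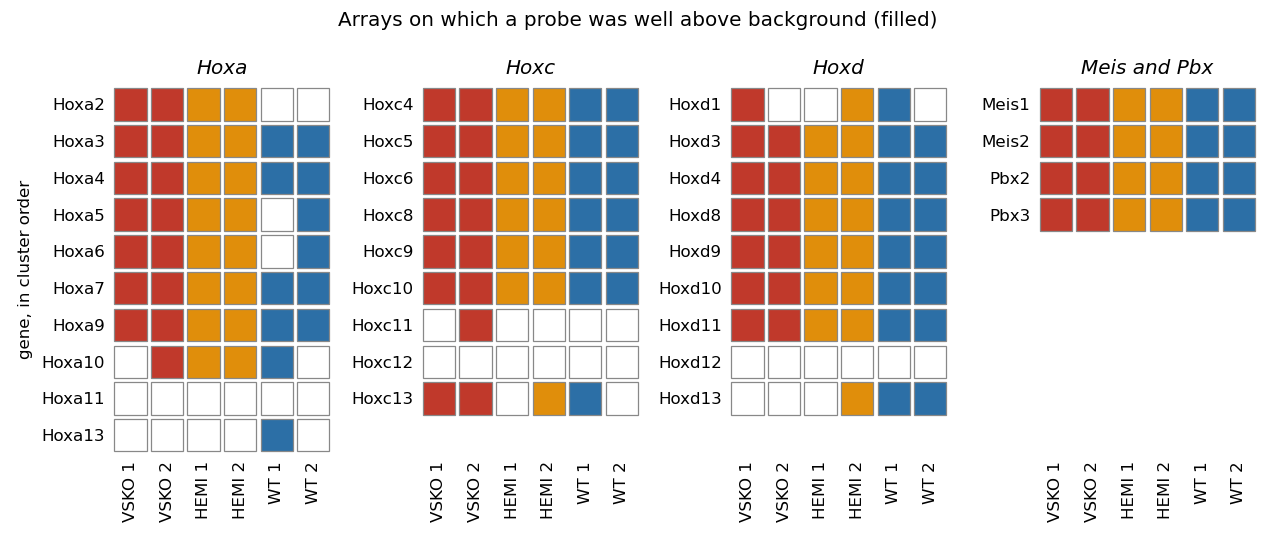
Detection of the 32 members (rows, in cluster order) on the 6 arrays (columns), where a filled square marks an array on which a probe of the gene was well above background. Filled squares run without gaps from Hoxc4 to Hoxc10 and from Hoxd3 to Hoxd11, and 3 genes of groups 11 and 12 have none.

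The widest spread of the Hox members was between animals of the same genotype, and HEMI replicate 1 stood apart. The runs of neighbouring genes below were marked off after the values had been seen, and differences between 2 animals carry no test. Hoxa5, needed for the lung and the cervical skeleton, read -2.47 on HEMI replicate 1 and -5.75 on HEMI replicate 2, a gap of 3.28 on the log2 scale (9.69-fold). The replicate 2 value is close to the lowest detected signal of that array (-5.89), so the size of this gap is uncertain. Hoxa7, a gene of thoracic identity, read 1.06 and -1.32 on those arrays, a gap of 2.38 (5.21-fold). Each of the 6 genes from Hoxa2 to Hoxa7 was higher on HEMI replicate 1 than on replicate 2, by 0.91 to 3.28 (median 1.50). The next genes of the cluster differed less, Hoxa9 by 0.17 and Hoxa10 by 0.59.

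In Hoxc too, a run of neighbouring genes was higher on HEMI replicate 1. All 5 tested genes from Hoxc4 to Hoxc9 were higher on HEMI replicate 1, by 0.97 to 1.93 (median 1.22), whereas Hoxc10 was lower there, by -0.30. Hoxc13 and Hoxd13 were not well above background on HEMI replicate 1, so the size of their differences is not measured. In Hoxd, the 6 genes from Hoxd3 to Hoxd11 differed by -0.16 to 0.29. The cofactors differed by -0.15 to 0.50. Over all genes tested the median difference was -0.008 and 48.7% were higher on HEMI replicate 1.

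The VSKO animals also differed along these runs, and by less. Which animal was higher was read from the data, so a shared direction with HEMI has no meaning. Hoxa2 to Hoxa7 were all higher on VSKO replicate 2 than on replicate 1, by 0.24 to 1.48, and so were the 5 genes from Hoxc4 to Hoxc9, by 0.13 to 1.23. Over all genes tested 51.9% were higher on VSKO replicate 2. Between the WT animals the Hoxa2 to Hoxa7 differences were of either sign, from -0.70 to 0.41, and Hoxc5 was 1.80 higher on WT replicate 1. Other members differed there too: 6 of 26 were more than 0.9 higher on WT replicate 1 (23.1%, against 2.96% of all genes). They included Hoxc10, Hoxd3 and Hoxd11. The same count was 4 (15.4%, against 3.33%) on VSKO replicate 2 and 11 (42.3%, against 4%) on HEMI replicate 1.

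**Figure D2:**
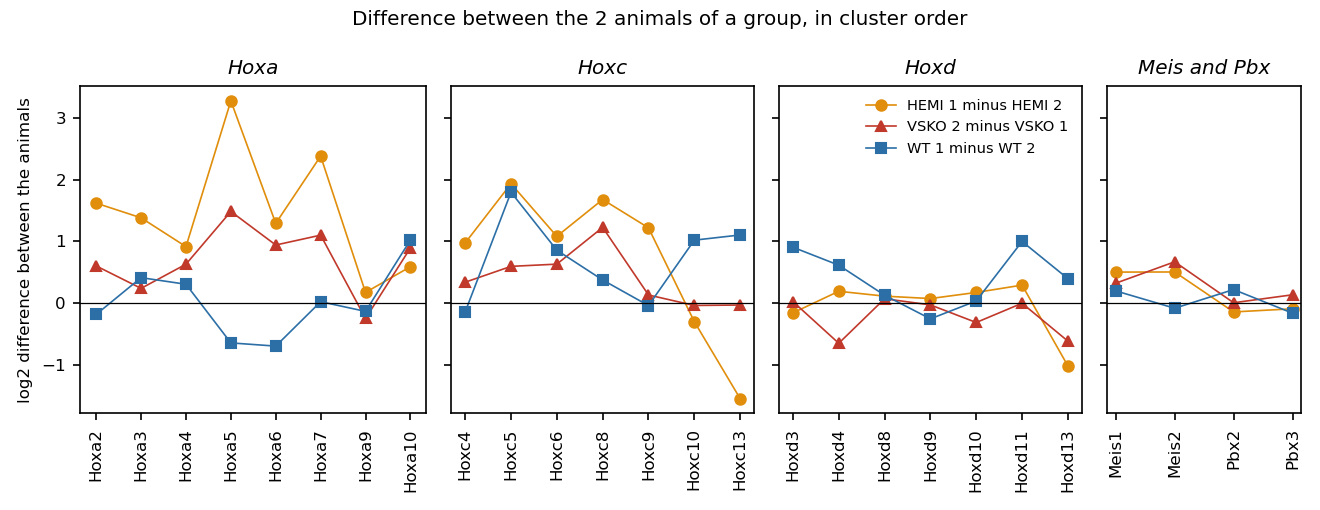
Log2 difference between the 2 animals of each genotype for the 26 tested members, in cluster order, with the sign turned so that the animal with the higher Hoxa values is first for HEMI and VSKO. The HEMI line lies above 0.9 from Hoxa2 to Hoxa7 and from Hoxc4 to Hoxc9 and stays between -0.16 and 0.29 from Hoxd3 to Hoxd11, while Hoxc13 and Hoxd13 were not well above background on HEMI replicate 1.

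Markers of duct tissue and of macrophages, singled out from the marker lists, are set beside these genes here. Of the 14 tested markers of mesonephric duct, epididymis and rete, 13 were higher on HEMI replicate 1 than on replicate 2 (median 0.93). On VSKO replicate 2, 10 of the 14 were higher than on replicate 1. Cdh16, a cadherin of kidney and duct epithelium, had the widest gap of the list in both groups. It read 0.89 on HEMI replicate 1 and -4.72 on replicate 2, and -1.75 on VSKO replicate 2 against -5.82 on replicate 1. The last value lies under the lowest detected signal of that array (-5.81), so the size of the VSKO gap is not measured. The median of this list, taken over genes after subtracting the mean of each gene over the arrays, was -0.26 and 0.37 in VSKO, 0.67 and -0.35 in HEMI and -0.46 and -0.12 in WT. The same median over the 8 tested Hoxa members was -0.55 and 0.31 in VSKO, 0.97 and -0.39 in HEMI and -0.16 and -0.10 in WT. Other marker lists went either way between the HEMI animals. On HEMI replicates 1 and 2 the median was -0.24 and 1.15 for skeletal muscle and -0.16 and 0.12 for Sertoli cells. For interstitial mesenchyme it was 0.03 and -0.13. Limb, body wall and gubernacular mesenchyme read 0.19 and -0.15, and peritubular myoid cells 0.12 and -0.18. The other way went germ cells, at -0.23 and 0, and erythroid cells, at -0.44 and -0.17. All 9 macrophage markers were also higher on HEMI replicate 1, with a median of 0.94, and all 9 were higher on VSKO replicate 2. Of the 10 Hoxb genes, 8 were higher on HEMI replicate 1 (median 0.97). Of the 8 Hoxa members, 5 (62.5%) had their highest value on HEMI replicate 1, against 11% of all genes. The same count was 3 of 7 for Hoxc (42.9%), where another 3 were highest on WT replicate 1, 1 of 7 for Hoxd (14.3%) and 2 of 4 for the cofactors. For interstitial mesenchyme it was 6 of 14 (42.9%). The part of duct tissue or macrophages in the Hox values was not tested.

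**Figure D3:**
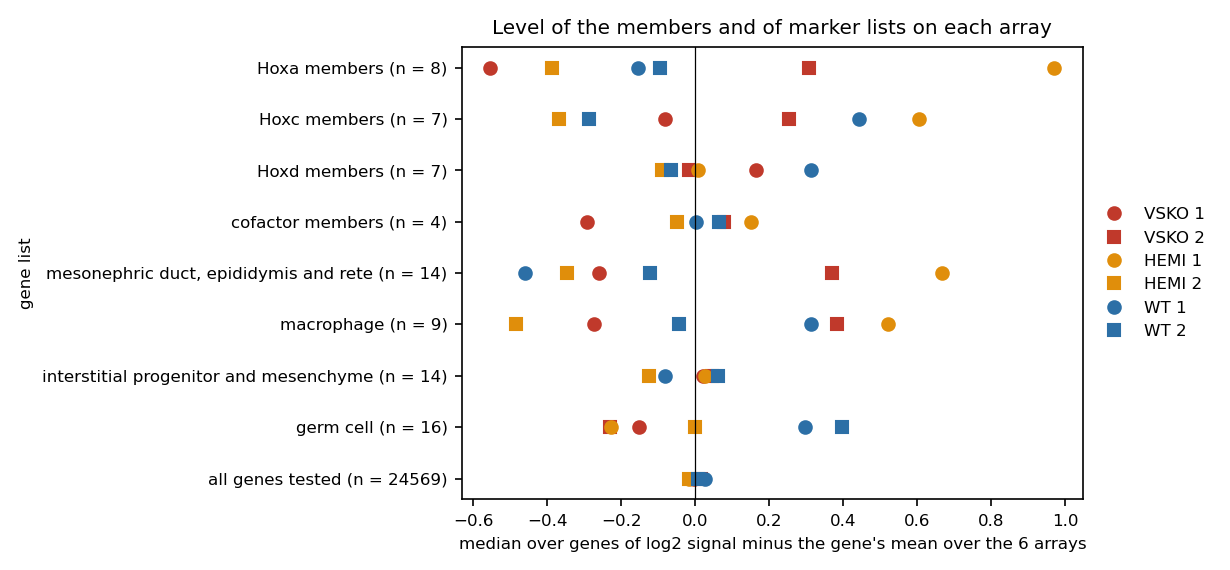
Median over the genes of each list of the log2 signal minus the mean of the gene over the 6 arrays (x axis), with 1 point per array and n the number of genes tested. HEMI replicate 1 is the farthest right point of the Hoxa members (0.97), the mesonephric list (0.67) and the macrophage list (0.52), while the medians of all genes lie between -0.018 and 0.025.

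Between genotypes, none of the 26 tested members passed at an adjusted p under 0.05 in any of the 3 comparisons (limma, adjusted by the Benjamini-Hochberg method over 24569 genes). In VSKO against WT the count was 0 of 26 members, against 0.977% of all genes. At an unadjusted p under 0.05 it was 3 of 26 (11.5%), against 14.7% of all genes. The 2 groups did not overlap for 10 of 26 members (38.5%), against 45.7% of all genes. These counts are near the shares of all genes and are no result about the members. The median difference of the members was -0.02, and that of all genes -0.009. The 3 members were Hoxd10 (higher in VSKO), Hoxd13 and Pbx2 (lower in VSKO). Hoxd13 passed the filter only through WT, where it is higher. With detection on all 6 arrays the count was 2 members, among 3278 such genes in all.

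In HEMI against WT 0 of 26 members passed, against 0.118% of all genes, and 0 had an unadjusted p under 0.05, against 12.4%. The groups did not overlap for 3 of 26 members (11.5%, against 49.3% of all genes), namely Hoxa2 and Hoxd10, higher in HEMI, and Pbx2, lower. In VSKO against HEMI 0 of 26 passed, against 0.142%, and 4 (15.4%) had an unadjusted p under 0.05, against 7.69%. Those 4 were Hoxc13 and Hoxd10, higher in VSKO, and Hoxd13 and Pbx2, lower in VSKO. Hoxc13 passed the filter only through VSKO, where it is higher, and Hoxd13 only through WT. With detection on all 6 arrays, 2 members had an unadjusted p under 0.05 by limma, among 1586 such genes in all. Here 9 of 26 members (34.6%) did not overlap, against 32.9% of all genes. The comparisons share arrays, so a gene that recurs in 2 of them was not measured independently.

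**Figure D4:**
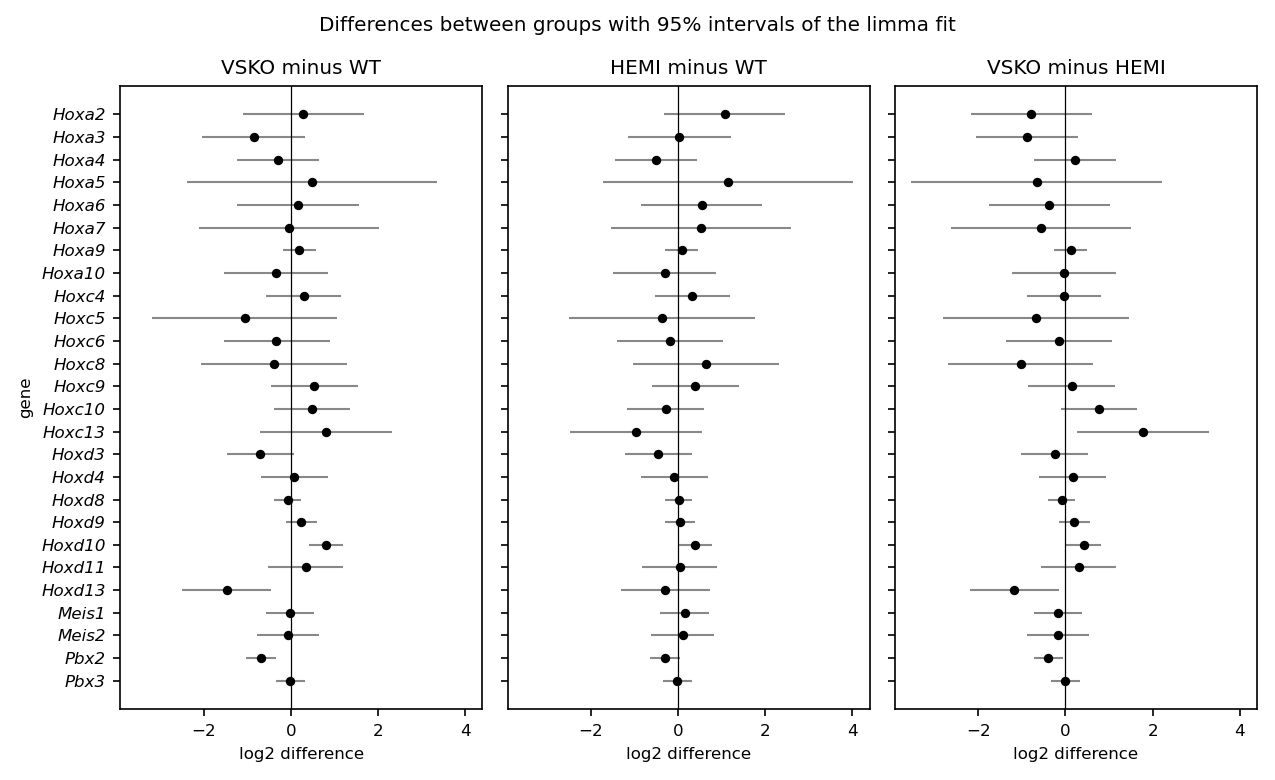
Log2 difference (points) with its 95% interval (lines) for the 26 tested members in each comparison of 2 genotypes, from the limma fit with 2 animals per group. The intervals of Hoxd10, Hoxd13 and Pbx2 leave out 0 in VSKO minus WT and in VSKO minus HEMI, before adjustment over all genes.

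Hoxd10 had the smallest p of the members in VSKO against WT. This gene takes part in the patterning of the distal limb and the lower spinal cord. It read 0.63 and 0.31 in VSKO, 0.14 and -0.03 in HEMI and -0.32 and -0.35 in WT. All 3 groups stood clear of each other, with VSKO highest and WT lowest. How many of all genes show such an order was not counted. Depending on the comparison, 32.9% to 49.3% of all genes had 2 groups without overlap. VSKO exceeded WT by 0.80 ± 0.16 (SE, adjusted p = 0.112). HEMI exceeded WT by 0.39 ± 0.16 (adjusted p = 0.41), and VSKO exceeded HEMI by 0.42 ± 0.16 (adjusted p = 0.601). Over 17 other ways of processing and fitting, the first of these stayed between 0.64 and 0.96, and its adjusted p between 0.0634 and 0.342. Without HEMI replicate 1, HEMI minus WT was 0.30, and without VSKO replicate 1, VSKO minus HEMI was 0.26.

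The Hoxd neighbours of Hoxd10 did not share its size of difference. Hoxd9 differed by 0.24 ± 0.14 in VSKO minus WT (adjusted p = 0.487) with no overlap, and Hoxd8 by -0.07 ± 0.12 (adjusted p = 0.826). Hoxd4 differed by 0.07 ± 0.30 (adjusted p = 0.934). For Hoxd11 the 2 probes disagreed in sign, at 0.34 ± 0.34 for the one used and -0.57 ± 0.39 for the other, and neither passed. Hoxd3, which acts in the neck vertebrae, read -3.38 and -3.36 in VSKO, -3.20 and -3.04 in HEMI and -2.22 and -3.12 in WT. The VSKO values were the lowest and lay close together, and WT replicate 1 was the highest. Its VSKO minus WT difference was -0.70 ± 0.30 (adjusted p = 0.373), and -0.25 without WT replicate 1.

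Hoxd13, the gene at the posterior end of the cluster that shapes digits and the genital tubercle, was dim. Its signal was -6.06 and -6.67 in VSKO, -5.70 and -4.68 in HEMI and -4.70 and -5.09 in WT, and it was well above background on no VSKO array. The VSKO values were the lowest of the 6. The fitted difference was -1.47 ± 0.40 (adjusted p = 0.202, limma). The VSKO values lie below the detection limit, and with the main processing the mean of WT was at least 1.74-fold that of VSKO. With normexp the fitted difference was -0.38, so this bound depends on the processing. In HEMI 1 of 2 arrays was detected, so no fold is given against VSKO (adjusted p = 0.539). Over 16 alternatives the fitted difference to WT ran from -1.78 to -0.38, always with VSKO lower.

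Among the Hoxa members from Hoxa2 to Hoxa7 the gap between the HEMI animals exceeded each difference between HEMI and WT means. Hoxa2, which patterns the hindbrain and the second branchial arch, read -5.51 and -4.91 in VSKO, -3.62 and -5.24 in HEMI and -5.59 and -5.40 in WT. Both WT values were below detection, and HEMI replicate 1 was 1.62 above the other HEMI animal. Its HEMI minus WT difference was 1.07 ± 0.55 (adjusted p = 0.504, limma), 0.26 without HEMI replicate 1 and 0.22 with normexp. The bound of at least 1.83-fold is for the mean of the HEMI animals with the main processing. It rests on HEMI replicate 1 and is no minimum for the genotype. Hoxa3, a gene of thymus and parathyroid formation, read -2.51 and -2.28 in VSKO, -0.82 and -2.20 in HEMI and -1.34 and -1.75 in WT. VSKO lay below both other groups, with a VSKO minus WT difference of -0.85 ± 0.46 (adjusted p = 0.473). The HEMI minus WT difference of Hoxa3 was 0.03 with both HEMI animals and -0.66 without replicate 1.

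Hoxa5 read -5.51 and -4.03 in VSKO, -2.47 and -5.75 in HEMI and -5.58 and -4.93 in WT. HEMI held both the highest and the lowest value, and the HEMI minus WT difference of 1.15 ± 1.13 (adjusted p = 0.711) was -0.49 without HEMI replicate 1. Hoxa6 read -5.49 and -4.55 in VSKO, -4.00 and -5.29 in HEMI and -5.53 and -4.83 in WT. It is a neighbour of Hoxa5 with thoracic expression, and its groups overlapped in every comparison. The HEMI minus WT difference of Hoxa6 was 0.54 ± 0.55 (adjusted p = 0.72), and -0.11 without HEMI replicate 1. Hoxa7 read -1.24 and -0.14 in VSKO, 1.06 and -1.32 in HEMI and -0.64 and -0.66 in WT. The WT animals were nearly equal and lay between the animals of each other group. For Hoxa7 the HEMI minus WT difference of 0.52 ± 0.82 (adjusted p = 0.82) was -0.67 without HEMI replicate 1, and VSKO minus WT was -0.04 ± 0.82 (adjusted p = 0.987). The remaining Hoxa members tested, Hoxa4, Hoxa9 and Hoxa10, differed between genotypes by -0.51 to 0.23, and the lowest of their adjusted p was 0.596.

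**Figure D5:**
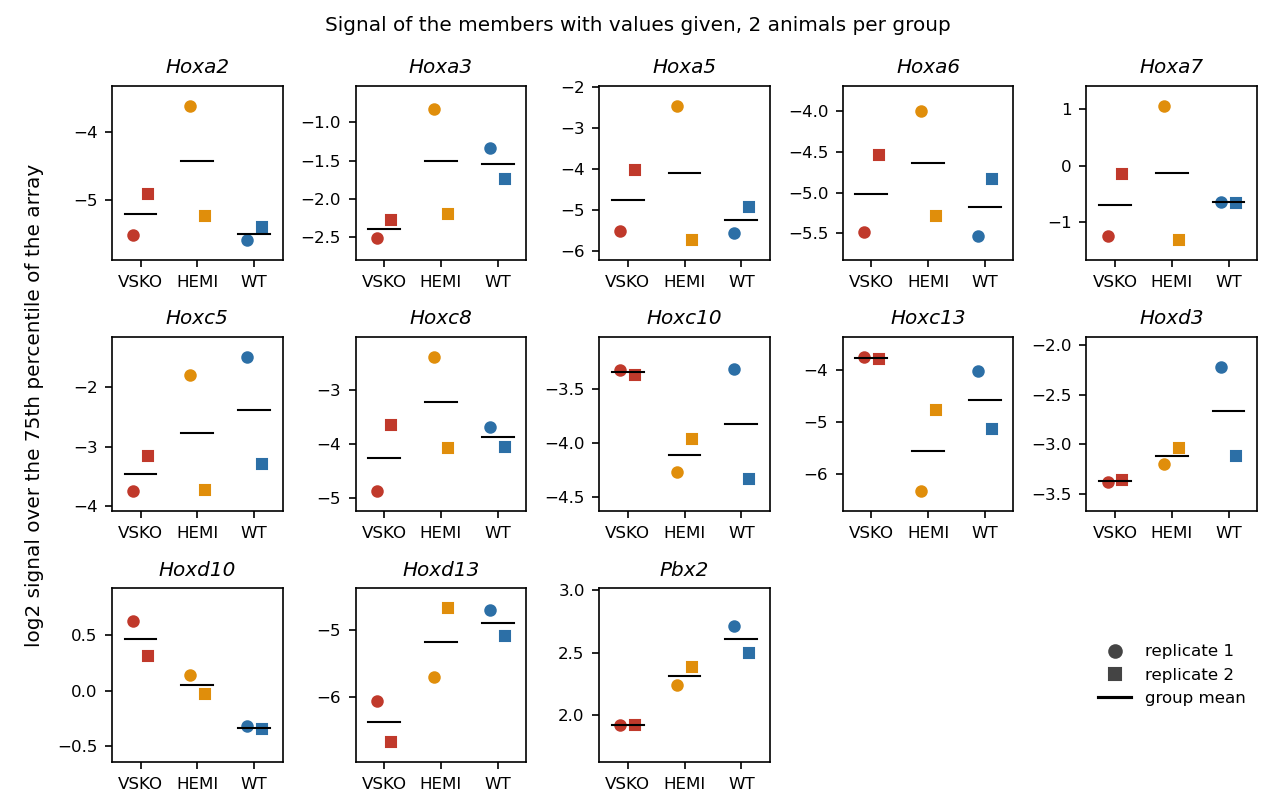
Log2 signal over the 75th percentile of the array for the 13 members with values given, with 1 point per animal and a line at the group mean (each panel has its own y axis). The 3 genotypes do not overlap for Hoxd10 and Pbx2, and the share of all genes with such an order was not counted. HEMI replicate 1 is the highest point for Hoxa2, Hoxa3, Hoxa5, Hoxa6, Hoxa7 and Hoxc8.

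Hoxc members of the cervical and thoracic groups also varied within genotypes. Hoxc5 read -3.75 and -3.16 in VSKO, -1.81 and -3.74 in HEMI and -1.50 and -3.29 in WT. Replicate 1 stood 1.93 above its partner in HEMI and 1.80 in WT, and the VSKO minus WT difference was -1.06 ± 0.84 (adjusted p = 0.613). It ran from -1.96 without WT replicate 2 to -0.17 without WT replicate 1. Hoxc8, a gene of the lower thoracic vertebrae and forelimb motor neurons, read -4.88 and -3.65 in VSKO, -2.40 and -4.07 in HEMI and -3.70 and -4.07 in WT. The groups overlapped, and the VSKO minus HEMI difference of -1.03 ± 0.66 (adjusted p = 0.938) was -0.19 without HEMI replicate 1. Hoxc4, Hoxc6 and Hoxc9 differed between genotypes by -0.33 to 0.54 and none passed.

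Hoxc10 and Hoxc13, the posterior Hoxc members tested, read higher in VSKO than in HEMI, and neither passed. Hoxc10, used in the lumbar region and hindlimb, read -3.33 and -3.37 in VSKO, -4.27 and -3.96 in HEMI and -3.32 and -4.34 in WT. VSKO and HEMI stood apart while WT spanned both, and VSKO minus HEMI was 0.77 ± 0.35 (adjusted p = 0.753), and 0.35 with normexp background correction. Hoxc13 read -3.76 and -3.79 in VSKO, -6.33 and -4.78 in HEMI and -4.02 and -5.13 in WT. The VSKO animals agreed closely and were above the other 4, and VSKO minus HEMI was 1.78 ± 0.60 (adjusted p = 0.529). Hoxc13 was not well above background on HEMI replicate 1, and the value was 1.00 without that array and 0.57 with normexp.

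Of the cofactors, Pbx2, a broadly expressed TALE partner of Hox proteins, read 1.92 and 1.93 in VSKO, 2.24 and 2.39 in HEMI and 2.72 and 2.50 in WT. The 3 groups did not overlap, with VSKO lowest and WT highest, which is the reverse of the order seen for Hoxd10. Here too, how many of all genes show such an order was not counted. The VSKO minus WT difference was -0.69 ± 0.14 (adjusted p = 0.115). A step of -0.30 ± 0.14 separated HEMI from WT (adjusted p = 0.462) and one of -0.39 ± 0.14 separated VSKO from HEMI (adjusted p = 0.55), and the first was -0.19 without WT replicate 1. Over 17 alternatives VSKO minus WT stayed between -0.79 and -0.58, with adjusted p from 0.0527 to 0.36. Pbx3 was the steadiest cofactor, ranging over 0.17 across the 6 arrays, and its VSKO minus WT difference was -0.02 ± 0.13 (adjusted p = 0.963). Its other probe gave -0.14 ± 0.13. Meis1, with a 95% interval of -0.58 to 0.54 for VSKO minus WT, and Meis2, with -0.79 to 0.64, did not pass either (adjusted p = 0.975 and 0.928).

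The other Hox genes and TALE partners were read from a list of 18 genes: the Hoxb cluster and further Pbx, Meis, Pknox and Tgif family members. In VSKO against WT 1 of 18 rose and 0 fell, and 10 had an unadjusted p under 0.05 in the upward direction, against 7.22% of all genes. The median difference was 0.51. The gene that rose was Hoxb1, which patterns the hindbrain: it read -3.73 and -3.44 in VSKO, -7.56 and -6.75 in HEMI and -6.54 and -7.19 in WT. The level in VSKO was at least 3.28-fold that of WT, where it was not detected (adjusted p = 0.0343, limma). Its HEMI values also lie under the lowest detected signals of those arrays (-5.61 and -5.89). Hoxb1 thus passed the filter only through VSKO, where it is high. In HEMI against WT 0 of 18 passed and the median was 0.21, and in VSKO against HEMI 0 of 18 passed and the median was 0.48. Of 29 known regulators of Hox clusters, 27 were tested and none passed in any comparison, with medians between -0.03 and 0.03. The tested ones included Cdx factors, retinoic acid receptors, Cyp26 enzymes and Polycomb proteins. Cdx4, detected on no array, was not tested. Kmt2a, the Trithorax methyltransferase of the list, was not analysed here under that name. Of 27 genes and noncoding RNAs beside or within the clusters, 20 were tested and none passed, with medians between -0.03 and 0.03. Hotair, Hottip, Hotairm1, Hoxaas2, Hoxaas3 and Haglr were not analysed here under those names.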

How the data were processed

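Total RNA (100 ng per animal) was amplified, labelled with Cy3 and hybridised, per the labels' protocols. Each spot in the deposited scanner files has a processed intensity (linear, with the background subtracted per the file headers). Its flags, of no unit (other), call it an outlier, saturated or well above background. The extraction software was Agilent Feature Extraction, version 10.7.3.1 per the file headers and 8.5.1.1 per the submitters' processing notes. The series table the authors deposited is an intensity too: it equals the processed signal divided by the median of its array to within 0.00105%, and each of its columns has a median of 1. Probe positions are on mm9, per the file headers.

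Log2 processed signals were shifted by the 75th percentile of each array over 59305 non-control spots. Outliers were dropped and the spots of a probe averaged. Symbols came from RefSeq (GRCm38.p6, names only): 26762 of 55681 probes matched by accession, 102 by another accession, 3751 by symbol, and 25066 kept the name in the file. Genes were represented by their brightest kept probe (34365 probes kept). All 6 arrays were fitted in limma 3.58.1 under R 4.3.3 with 1 mean per group (3 residual and 2.25 prior degrees of freedom), Benjamini-Hochberg adjustment ran over all genes, and the fit was tested on simulated data. Errors of differences are SE of the fit, and 2 animals per group limit the precision. A bound ("at least N-fold") sets the mean of the brighter group against, per array of the dim group, the higher of the lowest detected signal and the probe's own. It holds for the main processing and carries no error.

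The members and lists were chosen with earlier results of these data known, and 2 further genes of the lists are not reported here. Values on every array are given for members with an unadjusted p under 0.05 or among the 6 largest differences in any comparison (13 of 26), from the other lists only for genes that passed. The alternatives were normexp background correction (offset 50), median and quantile scaling, the series table, no filter, detection on all 6 arrays, the mean of the probes of a gene, every probe by itself, an intensity trend, only the 2 groups compared, the replicate number as a block, and leaving out each array. Arrays with the same replicate number did not deviate together (correlations of -0.037, -0.027 and -0.006 over genes), so no shared effect of the number was seen. Whether animals of the same number were bred or handled together cannot be read from this. The arrays shared 1 slide, 1 scan time and 1 protocol.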

Additional observations from a re-analysis of the deposited data

How the results depend on the processing

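In all 17 alternatives 0 members passed in any comparison (limma, with 0 to 8 members at an unadjusted p under 0.05). The median over members stayed between -0.22 and 0.18 for VSKO minus WT, -0.18 and 0.27 for HEMI minus WT and -0.37 and 0.26 for VSKO minus HEMI, so its sign is not settled. Of 648 values of named members under alternatives, 27 turned direction, 24 of them on leaving out an array, and none of these passed in any setting. The cause was not tested.

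The number of all genes that passed in VSKO minus WT (240) was 12 with no filter, 19 with the replicate block, 42 with only the 2 groups compared and 0 to 69 on leaving out an array. In HEMI minus WT (29) it was 132 with normexp, 55 with median scaling or the series table, 68 with detection on all 6 arrays, 130 with an intensity trend, 4 with only the 2 groups, 0 with no filter, 0 with the replicate block and 0 to 8 on leaving out an array. In VSKO minus HEMI (35) it was 74 with median scaling or the series table, 17 with quantile scaling, 5 with no filter, 15 with detection on all 6 arrays, 0 with the replicate block, 0 with only the 2 groups and 0 to 41 on leaving out an array. Where limma counted 0, between 1693 and 5281 genes had an unadjusted p under 0.05.

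With normexp, VSKO minus WT turned to -0.037 for Hoxa2 and -0.23 for Hoxa6, and HEMI minus WT to -0.10 for Hoxa6. On leaving out an array, VSKO minus WT ran from -0.014 to 0.59 for Hoxa2, -0.26 to 1.23 for Hoxa5, -0.31 to 0.63 for Hoxa6, -0.59 to 0.51 for Hoxa7, -0.997 to 0.23 for Hoxc8 and -0.028 to 0.99 for Hoxc10. HEMI minus WT ran from -0.66 to 0.72 for Hoxa3, -0.49 to 2.79 for Hoxa5, -0.11 to 1.18 for Hoxa6, -0.67 to 1.71 for Hoxa7, -1.34 to 0.59 for Hoxc5, -0.19 to 1.49 for Hoxc8, -0.80 to 0.22 for Hoxc10 and -0.80 to 0.22 for Hoxd13. VSKO minus HEMI ran from -1.59 to 0.027 for Hoxa2, -2.30 to 0.98 for Hoxa5, -1.02 to 0.27 for Hoxa6, -1.75 to 0.63 for Hoxa7 and -1.65 to 0.28 for Hoxc5. Hoxa2, Hoxa5, Hoxa6, Hoxc13 and Hoxd13 have no value with detection on all 6 arrays. A group left with 1 array is assumed to vary like the others. Hoxa2 and Hoxc13 were not well above background on 2 arrays each and Hoxd13 on 3, so the size of their differences is uncertain there.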

Other observations

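The genes at and around the ends of the clusters gave a few values outside the lists of members. Evx1, Evx2, Hoxa11os, Cdx1 and Cdx2 were chosen after their values were seen, and none passed by limma. Evx1, a homeobox gene beside Hoxa13, read -1.75 on VSKO replicate 1 and between -5.42 and -4.57 on the other 5 arrays, so that 1 animal makes its VSKO minus WT difference of 1.69 (adjusted p = 0.508). Evx2, its counterpart beside Hoxd13, stayed between -0.36 and -0.01 on all arrays. Hoxa11os, the antisense RNA of Hoxa11, read -4.09 and -3.89 in VSKO, -3.86 and -4.20 in HEMI and -3.40 and -3.71 in WT, with both WT values highest, while Hoxa11 itself was detected on no array.

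Cdx2, a caudal-type regulator of posterior Hox genes, read -4.05 and -4.93 in VSKO, -7.84 and -6.38 in HEMI and -5.43 and -6.34 in WT. Both HEMI values lie under the lowest detected signals of those arrays (-5.61 and -5.89). Both WT values do so too (-5.35 and -5.25). Cdx2 thus passed the filter only through VSKO, which held the highest values of the 6. The size of its difference to either group is not measured (VSKO minus HEMI, adjusted p = 0.283, limma). Cdx1 read -1.25 and -1.55 in VSKO, -2.30 and -2.15 in HEMI and -1.64 and -1.37 in WT. Its HEMI values were the lowest, by 0.82 against VSKO (adjusted p = 0.229) and -0.72 in HEMI minus WT (adjusted p = 0.21). Lhx1, a marker of the mesonephric list, rose in VSKO against WT by 1.25 ± 0.15 (adjusted p = 0.0431), with both HEMI animals also above WT, and it was 0.15 higher on HEMI replicate 1 than on replicate 2. Trim63, a skeletal muscle ubiquitin ligase, fell by 1.31 in VSKO against WT (adjusted p = 0.0431) and by 2.10 in HEMI against WT (adjusted p = 0.0408). It was the only 1 of 10 skeletal muscle markers that passed in either comparison. The median of that list was -1.01 in VSKO minus WT and 0.33 in HEMI minus WT, and its median by array, centred per gene, ran from -1.21 on VSKO replicate 1 to 1.29 on WT replicate 1. No marker of Sertoli cells, interstitial mesenchyme, peritubular myoid cells, endothelium, macrophages, erythroid cells, limb and body wall, adrenal gland or kidney passed in any comparison.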
